A study of Mus musculus with 18 samples.

Results

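The 10 genes described here form a core of the NRF2 antioxidant response: Nfe2l2, Keap1, Nqo1, Gclc, Gclm, Txnrd1, Srxn1, Slc7a11, Cbr3 and Ephx1. They were taken by symbol from 2 tables of liver RNA-seq with 33235 genes each, and all 10 were found and passed the filter on low values in both tables. Wild-type mice (genotype WT) received an antisense oligonucleotide against Mdm2, GalNAc-Mdm2ASO, or a control oligonucleotide, GalNAc-conASO. They were fed CDAHFD, known as a high-fat diet that lacks choline, or HFHC, a diet named here only by its abbreviation. No group was left without an oligonucleotide or on a plain diet. GalNAc is a sugar taken up by the asialoglycoprotein receptor of hepatocytes, while the RNA came from whole liver. Age, sex, dose and duration are not given in the sources used here. The 4 groups were Mdm2 ASO on CDAHFD (5 libraries), control ASO on CDAHFD (5), Mdm2 ASO on HFHC (3) and control ASO on HFHC (4). Mdm2 ASO replicates 6 and 7 on HFHC had identical values in every gene and were counted as 1 library, named 6-7, so 18 samples gave 17 libraries.

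NRF2, encoded by Nfe2l2, is a transcription factor that KEAP1 holds in the cytoplasm and marks for destruction. Oxidants and electrophiles modify cysteines of KEAP1, NRF2 then accumulates, pairs with small MAF proteins and binds antioxidant response elements near genes for glutathione synthesis, thioredoxin repair and detoxification. Most of this control acts on the NRF2 protein, which RNA-seq does not measure. In liver the response is known for protection against reactive drug metabolites and oxidised lipids.

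The core of an antioxidant response element, TGACNNNGC, was searched on both strands of the 300-base RefSeq promoter windows (GRCm38.p6). Windows were matched for 9 of the 10 genes, not for Gclc. The motif was present for 4 of the 9 (44.4%), against 3781 of 27025 genes with a window (14.0%) and 13 of 55 of the other NRF2 genes listed further on (23.6%). These 4 windows are shown 5′ to 3′ on the strand of the gene, with the match in capitals. A match on the opposite strand reads as the reverse complement, and a match is a description of the letters only. The genes were chosen as NRF2 genes, and a link of matches to their fold changes was not tested. The windows are chr2:75704614-75704913 (minus strand) for Nfe2l2, chr3:122245307-122245606 (plus) for Gclm, chr10:82858956-82859255 (plus) for Txnrd1 and chr2:152105274-152105573 (plus) for Srxn1.
Nfe2l2: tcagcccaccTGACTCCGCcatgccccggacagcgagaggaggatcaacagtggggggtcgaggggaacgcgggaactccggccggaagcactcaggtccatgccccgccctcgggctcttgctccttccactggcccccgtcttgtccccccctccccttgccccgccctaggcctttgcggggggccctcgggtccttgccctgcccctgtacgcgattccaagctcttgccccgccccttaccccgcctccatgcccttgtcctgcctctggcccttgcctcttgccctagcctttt
Gclm: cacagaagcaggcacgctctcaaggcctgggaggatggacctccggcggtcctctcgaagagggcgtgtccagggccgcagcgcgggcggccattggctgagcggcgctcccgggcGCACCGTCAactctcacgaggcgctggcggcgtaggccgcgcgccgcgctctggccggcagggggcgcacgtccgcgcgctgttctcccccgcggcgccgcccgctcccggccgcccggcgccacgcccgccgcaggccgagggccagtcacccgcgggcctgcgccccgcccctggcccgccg
Txnrd1: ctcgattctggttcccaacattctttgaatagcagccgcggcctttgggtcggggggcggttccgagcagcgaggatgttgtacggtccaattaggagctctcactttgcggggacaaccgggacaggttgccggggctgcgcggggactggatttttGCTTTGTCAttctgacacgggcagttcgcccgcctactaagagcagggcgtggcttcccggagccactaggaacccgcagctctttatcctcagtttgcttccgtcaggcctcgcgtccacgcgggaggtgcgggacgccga
Srxn1: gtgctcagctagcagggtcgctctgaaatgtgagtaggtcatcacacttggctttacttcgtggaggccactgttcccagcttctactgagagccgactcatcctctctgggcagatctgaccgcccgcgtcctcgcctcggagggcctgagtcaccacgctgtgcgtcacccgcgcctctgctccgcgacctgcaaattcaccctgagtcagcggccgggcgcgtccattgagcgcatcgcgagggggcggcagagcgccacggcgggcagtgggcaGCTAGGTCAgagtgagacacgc
In Nfe2l2 the match was TGACTCCGC on the gene's strand, 240 bases before the start. The others lay on the opposite strand, as TGACGGTGC 134 bases before the start of Gclm, TGACAAAGC 92 bases before 1 of 3 annotated starts of Txnrd1, and TGACCTAGC 29 bases after the start of Srxn1. Keap1, Nqo1, Slc7a11, Cbr3 and Ephx1 had no match in these windows, which leaves more distant elements unexamined.

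Values are TMM-normalized read counts, compared only within a diet because each table was scaled on its own. Libraries held 22.4 to 31.5 M reads on CDAHFD and 17.8 to 18.8 M on HFHC. Mdm2, the target, was 861, 566, 646, 564 and 598 in Mdm2 ASO livers on CDAHFD, against 1443, 1572, 1516, 1649.9 and 1644 in control ASO livers. On HFHC the counts were 420.4, 362 and 304 in Mdm2 ASO livers, against 907, 954, 963 and 956 in control ASO livers. The target was thus lower in every Mdm2 ASO library, at 41.3% of the control ASO mean on CDAHFD and 38.3% on HFHC. A gene was called changed at a Benjamini-Hochberg adjusted p under 0.05 from limma-trend over all genes of the table. By this rule 13.0% of 16803 genes changed on CDAHFD and 30.6% of 17441 on HFHC. Nothing in the labels says whether replicates came from separate animals, so p-values measure the spread between these samples.

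On CDAHFD, 3 of the 10 core genes were called: Nfe2l2 and Ephx1 rose and Srxn1 fell. The background there was 13.0% in either direction, 6.12% higher and 6.86% lower. On HFHC, 7 of the 10 fell and 0 rose, with 7 at an unadjusted p under 0.05, while 30.6% of all genes changed and 13.8% fell. Over all genes tested there, 7180 of 17441 had an unadjusted p under 0.05. The 7 that fell were Nqo1, Gclc, Gclm, Txnrd1, Srxn1, Slc7a11 and Ephx1. The groups did not overlap in any of them, nor in Keap1, which was not called. How many of all genes had groups without overlap was not counted, so this separation is a description only. The median log2 fold change of the 10 was -0.19 on CDAHFD and -0.40 on HFHC, beside -0.00 and -0.01 over all genes tested. On HFHC quantile normalization shifted the median of all genes to -0.11, and relative to it the 7 genes ranged between -2.13 and -0.08.

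**Figure D1:**
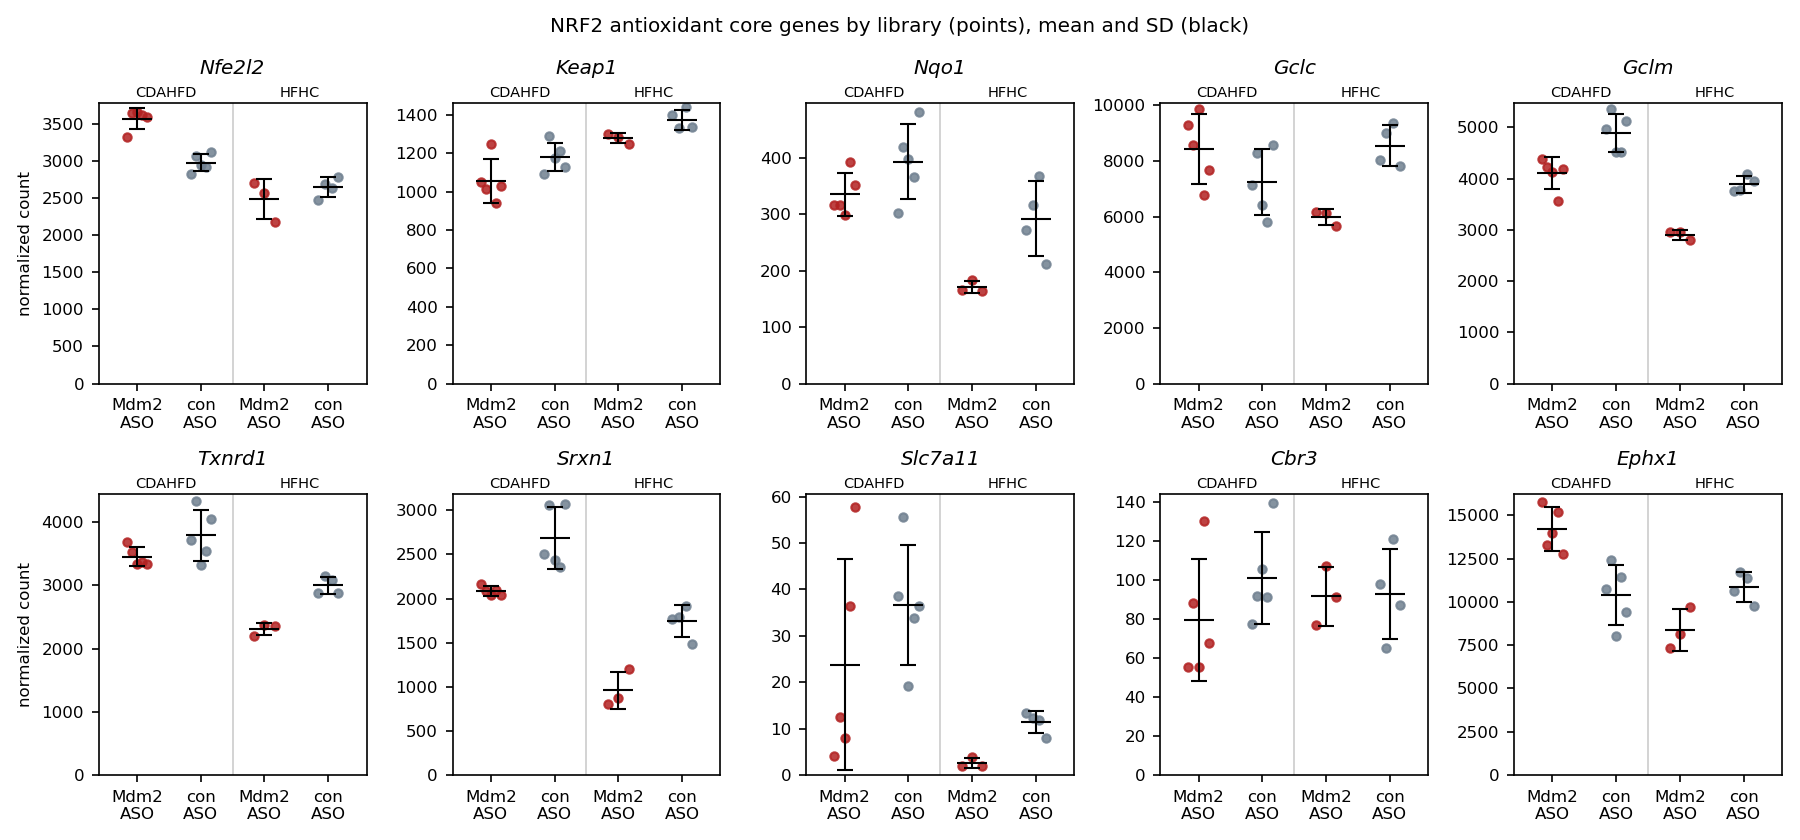
Normalized counts (y axis, linear from 0) of the 10 core genes in each library of the 4 groups, with the mean and SD in black; n is 5 and 5 on CDAHFD and 3 and 4 on HFHC. On HFHC the Mdm2 ASO points of Nqo1, Gclc, Gclm, Txnrd1, Srxn1, Slc7a11 and Ephx1 sit below every control ASO point. Those of Keap1, which was not called, do so too.

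Nfe2l2, the gene of the factor itself, rose on CDAHFD, and Keap1, the gene of its inhibitor, was called on neither diet. Nfe2l2 (ENSMUSG00000015839) was 3327, 3641, 3659.7, 3622 and 3597 in Mdm2 ASO livers on CDAHFD, against 2828, 3069, 2949, 2909.9 and 3115 in control ASO livers. Every Mdm2 ASO library was above every control ASO library. The means were 3569 ± 137 and 2974 ± 117 (SD, n = 5 each), 120% of control ASO (log2 fold change 0.26, SE 0.07, adjusted p = 0.0196). This rise was not called when libraries were scaled by their totals (adjusted p = 0.0571), nor without control ASO replicate 4 or Mdm2 ASO replicate 8. On HFHC Nfe2l2 was 2697, 2568 and 2180.3 in Mdm2 ASO livers, against 2471, 2689.8, 2638 and 2785 in control ASO livers. The groups overlapped (log2 fold change -0.10, 95% interval -0.30 to 0.10, adjusted p = 0.448).

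Keap1 (ENSMUSG00000003308), the adaptor that brings NRF2 to the CUL3 ubiquitin ligase, was 1054, 1014, 1248, 941 and 1028 in Mdm2 ASO livers on CDAHFD, against 1094, 1289, 1178, 1213 and 1132 in control ASO livers, with overlap (log2 fold change -0.16, SE 0.09, adjusted p = 0.234). On HFHC it was 1299, 1287 and 1249 in Mdm2 ASO livers and 1399, 1331, 1440.0 and 1337 in control ASO livers. There the groups did not overlap, but the log2 fold change of -0.11 (95% interval -0.25 to 0.04) missed the threshold at an adjusted p of 0.251.

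The ratio of Nfe2l2 to Keap1 within a library was chosen after these values were seen, so its test is no independent support. It was 3.16, 3.59, 2.93, 3.85 and 3.50 in Mdm2 ASO livers on CDAHFD, against 2.58, 2.38, 2.50, 2.40 and 2.75 in control ASO livers. No Mdm2 ASO library reached down to a control ASO library. The two-sided exact permutation p was 0.00794, the smallest that 252 regroupings allow, or 0.0159 adjusted over the 4 ratio tests. On HFHC the ratio was 2.08, 1.99 and 1.75 in Mdm2 ASO livers and 1.77, 2.02, 1.83 and 2.08 in control ASO livers, which overlapped (exact permutation p = 0.914, smallest possible 0.0571).

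Glutathione synthesis starts with glutamate-cysteine ligase, a catalytic subunit from Gclc and a modifier subunit from Gclm that raises its efficiency. Gclc (ENSMUSG00000032350) was 9286, 8561, 9885, 6767 and 7660.4 in Mdm2 ASO livers on CDAHFD, against 7154, 8274, 6406, 5791 and 8563 in control ASO livers, with overlap (log2 fold change 0.22, 95% interval -0.05 to 0.50, adjusted p = 0.271). On HFHC it was 6181, 6141 and 5662 in Mdm2 ASO livers, against 8027, 9009, 9349 and 7826 in control ASO livers. All 3 Mdm2 ASO libraries were lower, with means of 5995 ± 289 (n = 3) and 8553 ± 741 (n = 4), 70.1% of control ASO (log2 fold change -0.51, SE 0.09, adjusted p = 0.00302).

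Gclm (ENSMUSG00000028124), whose promoter window holds the motif shown above, was 4384, 4233, 4128, 3567 and 4194 in Mdm2 ASO livers on CDAHFD, against 4963, 5354, 4509.9, 4514 and 5132 in control ASO livers. The groups did not overlap, and the log2 fold change of -0.26 (SE 0.08) was just outside the threshold at an adjusted p of 0.0549. It was called in 5 of 18 alternatives, among them quantile normalization and DESeq2. On HFHC, values were 2957, 2961 and 2792 in Mdm2 ASO livers, against 3750.0, 3769.7, 4098 and 3953 in control ASO livers. The groups did not overlap, and Gclm fell to 74.6% of control ASO (log2 fold change -0.42, SE 0.07, adjusted p = 0.00172).

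Both subunit transcripts fell on HFHC, and neither was called on CDAHFD. The ratio of Gclc to Gclm, again chosen after the values were seen, was 2.12, 2.02, 2.39, 1.90 and 1.83 in Mdm2 ASO livers on CDAHFD, against 1.44, 1.55, 1.42, 1.28 and 1.67 in control ASO livers. All 5 Mdm2 ASO ratios exceeded all 5 control ASO ratios, with means of 2.05 ± 0.222 and 1.47 ± 0.144 (exact permutation p = 0.00794, adjusted 0.0159). On HFHC the ratios overlapped, with means of 2.06 ± 0.0321 in Mdm2 ASO livers and 2.20 ± 0.178 in control ASO livers (exact permutation p = 0.343, adjusted 0.457). Whether the ratios differ between diets was not tested.

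**Figure D2:**
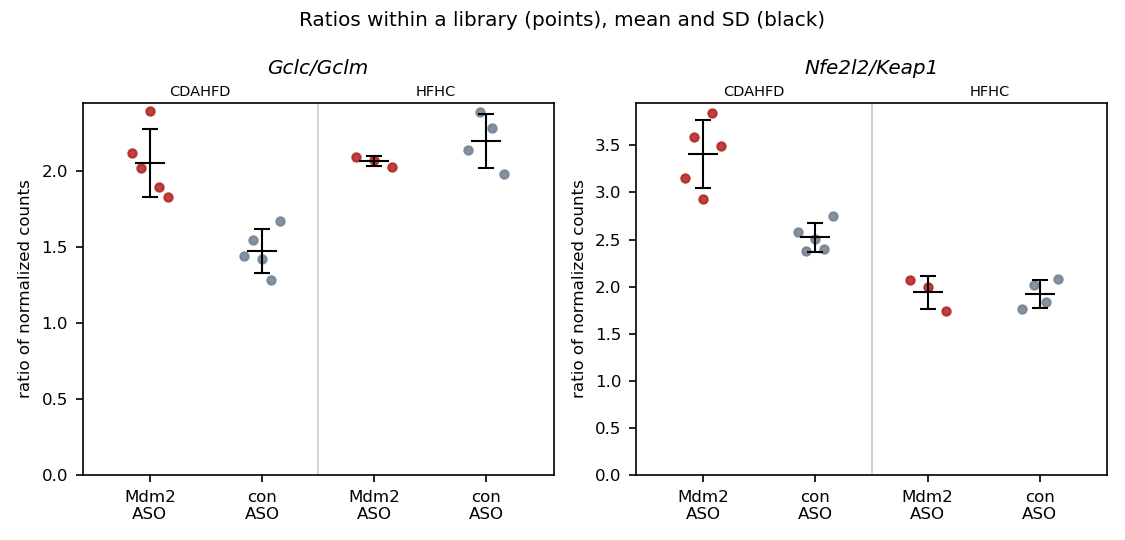
Ratio of normalized counts within each library (y axis, from 0), for Gclc over Gclm and Nfe2l2 over Keap1, with the mean and SD in black. On CDAHFD the 5 Mdm2 ASO points lie above the 5 control ASO points in both panels, and on HFHC the groups overlap.

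Cystine for glutathione enters through the exchanger whose transport subunit is encoded by Slc7a11 (ENSMUSG00000027737). It was 4.19, 12.6, 7.94, 36.4 and 57.7 in Mdm2 ASO livers on CDAHFD, against 38.6, 55.5, 19.3, 33.8 and 36.5 in control ASO livers, a wide overlap (log2 fold change -1.13, 95% interval -2.37 to 0.12, adjusted p = 0.222). On HFHC it was 1.85, 3.78 and 2.02 in Mdm2 ASO livers, against 13.4, 12.3, 11.9 and 7.99 in control ASO livers. The groups did not overlap there, and the gene fell to 22.4% of control ASO (log2 fold change -1.99, SE 0.40, adjusted p = 0.00474). That rests on 8 recovered reads in 3 Mdm2 ASO libraries and 43 in 4 control ASO libraries. The ratio per depth was 0.225 with an exact 95% interval of 0.0915 to 0.485, which covers counting error only. Fold changes are of log2(value + 0.5), and the added 0.5 understates changes of so low a gene. They also compare means of logs. On CDAHFD the ratio of means was milder, at 64.7% of control ASO, than the fold of 0.458 from the log2 fold change.

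In the thioredoxin branch, Txnrd1 (ENSMUSG00000020250) encodes cytosolic thioredoxin reductase, which recharges thioredoxin with NADPH. It was 3679, 3528, 3337, 3361 and 3341 in Mdm2 ASO livers on CDAHFD, against 3713, 4334, 3314, 3543 and 4052 in control ASO livers, with overlap (log2 fold change -0.13, 95% interval -0.31 to 0.05, adjusted p = 0.324). Under HFHC feeding they were 2196, 2365 and 2349 in Mdm2 ASO livers, against 2884, 3146, 3077 and 2885 in control ASO livers. Each Mdm2 ASO library was lower, at 76.8% of the control ASO mean (log2 fold change -0.38, SE 0.07, adjusted p = 0.00316).

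Srxn1 (ENSMUSG00000032802) encodes sulfiredoxin, which repairs over-oxidised peroxiredoxins, and was the only one of the 10 called lower on both diets. Gclm, Txnrd1, Nqo1, Slc7a11 and Keap1 also had negative fold changes on both diets, without a call on both. Of these, Gclm was just outside the threshold on CDAHFD (adjusted p = 0.0549). Srxn1 was 2167, 2086, 2036, 2100.2 and 2039 in Mdm2 ASO livers on CDAHFD, against 2509, 3064, 2439, 2354 and 3068 in control ASO livers. The Mdm2 ASO values were close together and all below control ASO (77.6%, log2 fold change -0.36, SE 0.09, adjusted p = 0.0173). Without control ASO replicate 2 the adjusted p was 0.0523. On HFHC it was 802, 875 and 1198 in Mdm2 ASO livers, against 1763, 1796, 1919 and 1489 in control ASO livers. That was 55.0% of control ASO, again without overlap (log2 fold change -0.88, SE 0.14, adjusted p = 0.00136).

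Among the reductases, Nqo1 (ENSMUSG00000003849) encodes the quinone reductase often used as a readout of NRF2. It was 316, 317, 299, 393 and 352 in Mdm2 ASO livers on CDAHFD, against 303, 419.9, 398, 367 and 482 in control ASO livers, with overlap (log2 fold change -0.22, 95% interval -0.50 to 0.05, adjusted p = 0.280). On HFHC the counts were 167, 183 and 164 in Mdm2 ASO livers, against 273, 317, 369 and 212 in control ASO livers. The Mdm2 ASO libraries were lower and less spread, with means of 171 ± 10.7 and 292 ± 66.6 (58.6%, log2 fold change -0.74, SE 0.17, adjusted p = 0.0101).

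Cbr3 (ENSMUSG00000022947), a carbonyl reductase, was called on neither diet. It was 55.5, 87.9, 55.6, 130.2 and 67.9 in Mdm2 ASO livers on CDAHFD and 77.2, 91.6, 105, 91.0 and 139 in control ASO livers (log2 fold change -0.39, 95% interval -0.92 to 0.13, adjusted p = 0.319). On HFHC it was 76.9, 107 and 90.9 in Mdm2 ASO livers and 98.1, 65.1, 121 and 86.9 in control ASO livers. The groups overlapped on both diets. On HFHC the log2 fold change was 0.00 with a 95% interval of -0.49 to 0.50, so changes within that interval are not excluded.

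Ephx1 (ENSMUSG00000038776), the microsomal epoxide hydrolase that opens reactive epoxides, was called in opposite directions. It was 15799, 13264, 13957, 15217 and 12799.7 in Mdm2 ASO livers on CDAHFD, against 10743, 12422, 8048, 11462 and 9414 in control ASO livers. Every Mdm2 ASO library was higher, at 136% of control ASO (log2 fold change 0.46, SE 0.12, adjusted p = 0.0200). HFHC counts were 7313, 8143 and 9690.3 in Mdm2 ASO livers, against 10607, 11760.5, 11371 and 9788 in control ASO livers. All 3 were lower, at 77.0% (log2 fold change -0.38, SE 0.12, adjusted p = 0.0347). This HFHC fall was lost in 6 of 16 alternatives, with quantile normalization (adjusted p = 0.0770) and without control ASO replicate 1, 2 or 4 or Mdm2 ASO replicate 6-7 or 9, with adjusted p up to 0.114.

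The difference between diets was tested directly as the CDAHFD log2 fold change minus the HFHC log2 fold change. It was called for 4 of the 10 core genes, all positive, where 23.5% of 16333 genes were called, 9.83% positive and 13.6% negative. Ephx1 differed by 0.84 (SE 0.18, adjusted p = 0.00188), from 0.46 on CDAHFD and -0.38 on HFHC. Gclc differed by 0.73 (SE 0.18, adjusted p = 0.00608), from 0.22 and -0.51 in the same order. The CDAHFD and HFHC responses of these genes of detoxification and glutathione synthesis had opposite signs, although that of Gclc on CDAHFD was not called. Srxn1 differed by 0.52 (SE 0.16, adjusted p = 0.0269), since its fall was smaller on CDAHFD. Nfe2l2 differed by 0.36 (SE 0.10, adjusted p = 0.0150). The Ephx1 difference was called in all 27 alternatives, while those of Nfe2l2 and Srxn1 were lost under scaling by library total (adjusted p = 0.203 and 0.0776). The Nfe2l2 difference was also lost with quantile normalization (adjusted p = 0.0786) and without Mdm2 ASO replicate 10 on HFHC, and that of Srxn1 without control ASO replicate 4 or Mdm2 ASO replicate 6-7 or 9 on HFHC.

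The other 6 core genes had no called difference, which does not show equal responses. Nqo1 differed by 0.52 (95% interval 0.06 to 0.98, adjusted p = 0.0948), called only with quantile normalization and without control ASO replicate 5 on HFHC. Txnrd1 differed by 0.25 (adjusted p = 0.116) and Gclm by 0.17 (95% interval -0.06 to 0.40, adjusted p = 0.295). For Keap1 the difference was -0.06 (95% interval -0.29 to 0.18). The intervals of Slc7a11 (-0.87 to 2.61) and Cbr3 (-1.16 to 0.37) were too wide to place.

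**Figure D3:**
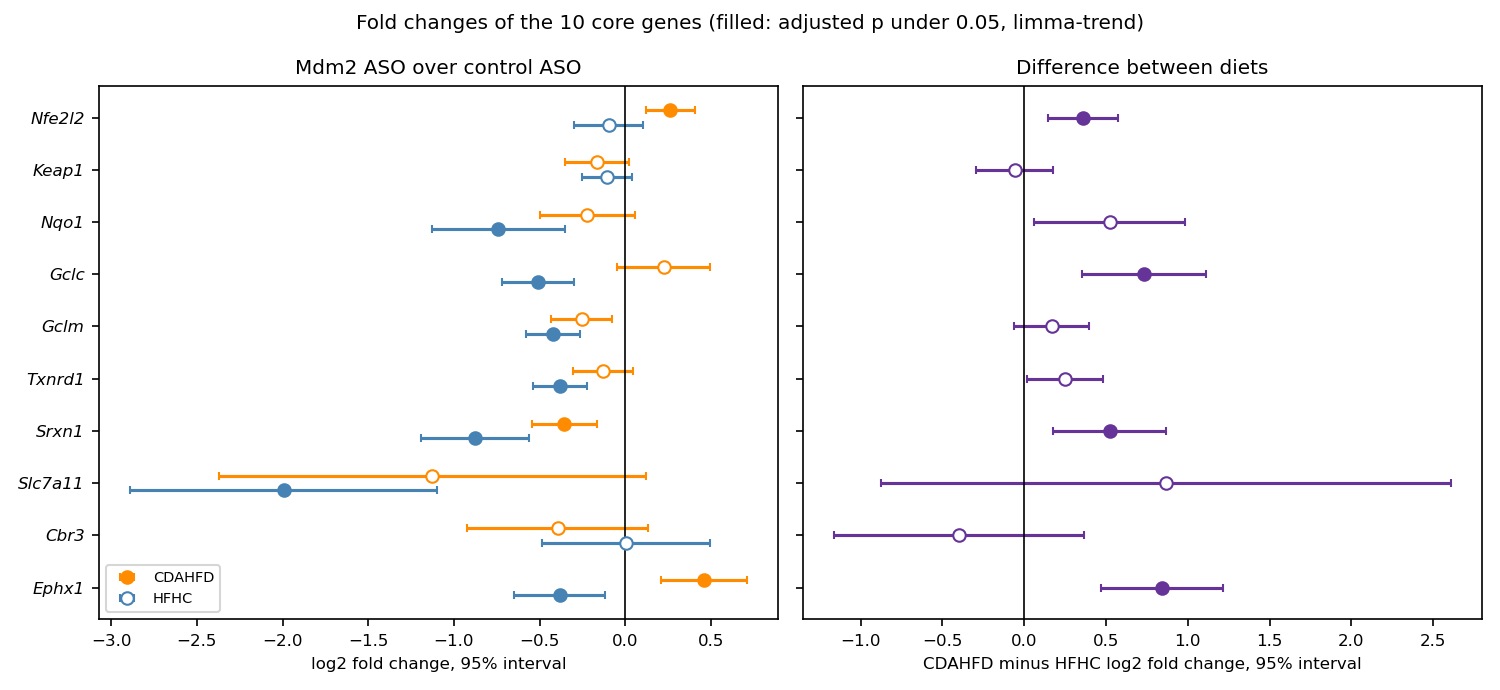
Left, log2 fold change of Mdm2 ASO over control ASO for each core gene on CDAHFD and HFHC, and right, the CDAHFD minus HFHC difference, each with its 95% interval; filled points passed adjusted p under 0.05 (limma-trend). The difference is filled for Nfe2l2, Gclc, Srxn1 and Ephx1, and Ephx1 is filled on both sides of 0 in the left panel.

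Levels between genes were compared as mean normalized counts per kilobase of exon (GENCODE M21 lengths). The order was Ephx1 first and Gclc second in all 4 groups, and Cbr3 ninth and Slc7a11 last. Ephx1 stood at 7286 and 5342 per kilobase in Mdm2 ASO and control ASO livers on CDAHFD and at 4299 and 5580 on HFHC, while Slc7a11 stood at 1.71 and 2.64 on CDAHFD and 0.183 and 0.819 on HFHC. The middle of the order held Nfe2l2, Gclm, Srxn1 and Txnrd1. In Mdm2 ASO livers on HFHC, Srxn1 (339.9 per kilobase) and Txnrd1 (325) differed by less than the SD of Srxn1. Keap1 and Nqo1 differed by less than either SD on CDAHFD, at 225 and 216 in Mdm2 ASO livers and 252 and 254 in control ASO livers. In control ASO livers the same held for Nfe2l2 and Gclm on CDAHFD (784 and 778) and for Gclm and Srxn1 on HFHC (619 and 618).

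Within groups, the genes also varied from library to library. Over deviations from group means in the 17 libraries, which share depth and tissue, the highest Pearson correlations were 0.80 for Gclm with Gclc, 0.67 for Srxn1 with Txnrd1 and 0.66 for Txnrd1 with Gclc. The lowest were -0.45 for Nfe2l2 with Ephx1 and with Srxn1, and -0.39 for Cbr3 with Keap1, while Nfe2l2 had 0.02 to 0.23 with the other 7 core genes. These are descriptions without a test.

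Beyond the core, 64 further genes of the pathway were followed in 6 lists, and all were tested on both diets. On CDAHFD 4 rose and 9 fell (median log2 fold change -0.03), and on HFHC 7 rose and 29 fell (median -0.35). The difference between diets was called for 25 of them, of which 19 were positive and 6 negative. Over all genes tested, 13.0% were called on CDAHFD, 30.6% on HFHC and 23.5% for the difference.

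Of 11 regulators, 2 rose and 2 fell on CDAHFD and 1 rose and 4 fell on HFHC. The shares of all genes for this and the next lists were 6.12% higher and 6.86% lower on CDAHFD, and 16.8% higher and 13.8% lower on HFHC. Sqstm1 encodes p62, which captures KEAP1 and is itself an NRF2 target, and it fell on both diets. It was 10634 ± 763 in Mdm2 ASO livers and 16075 ± 1315 in control ASO livers on CDAHFD (log2 fold change -0.60, adjusted p = 0.00121), and 7689.6 ± 627 and 15237 ± 922 on HFHC (-0.99, adjusted p = 6.8e-05). Bach1, a repressor that competes for the same elements, rose on HFHC to 1161 ± 289 in Mdm2 ASO livers, against 581 ± 55.4 in control ASO livers (0.97, adjusted p = 0.00157). Mafg, a small MAF partner of NRF2, rose on CDAHFD to 6919 ± 659.8 in Mdm2 ASO livers, against 4885 ± 679 in control ASO livers (0.51, adjusted p = 0.00625). On HFHC Mafg fell to 2526 ± 81.8 in Mdm2 ASO livers, against 3442 ± 522 in control ASO livers (-0.43, adjusted p = 0.0185), a call lost without Mdm2 ASO replicate 9. The difference for Mafg was 0.94 (adjusted p = 3.3e-04). Nfe2l1 fell on both diets (-0.43, adjusted p = 0.00994 on CDAHFD and -0.49, adjusted p = 8.0e-04 on HFHC).

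In glutathione use, 1 of 11 genes rose and 2 fell on CDAHFD, and 0 rose and 5 fell on HFHC. Gpx4, the glutathione peroxidase that reduces lipid hydroperoxides in membranes, was 5176 ± 1419 in Mdm2 ASO livers on HFHC, against 10378 ± 839.9 in control ASO livers (log2 fold change -1.04, adjusted p = 0.00165). Gss, which completes glutathione, fell there to 1534 ± 62.4 in Mdm2 ASO livers, against 2219 ± 131 in control ASO livers (-0.53, adjusted p = 5.5e-04). On CDAHFD Gsr, which regenerates reduced glutathione, fell (-0.41, adjusted p = 0.0161). Of 9 thioredoxin and peroxiredoxin genes, 0 rose and 1 fell on CDAHFD, and 1 rose and 3 fell on HFHC. Prdx3, the mitochondrial peroxiredoxin, fell on both (-0.44, adjusted p = 0.00179 on CDAHFD and -0.65, adjusted p = 0.00198 on HFHC). Prdx5 fell on HFHC (-0.76, adjusted p = 8.8e-04).

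Of 21 detoxification targets, 0 rose and 2 fell on CDAHFD, and 1 rose and 15 fell on HFHC (median -0.03 and -0.49). Gstm3, a glutathione transferase, fell on both diets (-1.03, adjusted p = 0.0113 on CDAHFD and -1.995, adjusted p = 2.9e-04 on HFHC), and Gsta1 fell on HFHC (-2.60, adjusted p = 0.00503). Glutathione transferases have near-identical copies between which reads can be split, so single members are uncertain. Ugdh, which makes the sugar donor for glucuronidation, fell on HFHC to 2274 ± 367 in Mdm2 ASO livers, against 3594 ± 392 in control ASO livers (-0.67, adjusted p = 0.00322).

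Not all targets moved this way. Of 6 heme and iron genes, 1 rose and 1 fell on CDAHFD, and 2 rose and 1 fell on HFHC. Hmox1, heme oxygenase, was 555 ± 148 in Mdm2 ASO livers and 934 ± 203 in control ASO livers on CDAHFD (log2 fold change -0.76, adjusted p = 0.0181), and 3814 ± 906 and 725 ± 92.6 on HFHC (2.38, adjusted p = 3.9e-06). Its difference between diets was -3.14 (adjusted p = 5.7e-07). Of 6 NADPH genes, 0 rose and 1 fell on CDAHFD, and 2 rose and 1 fell on HFHC. Me1 was the 1 that fell on HFHC (-1.02, adjusted p = 0.00873). Pgd, of the oxidative pentose phosphate pathway, fell on CDAHFD (-0.46, adjusted p = 0.00752) and rose on HFHC (0.36, adjusted p = 0.00466). G6pdx, the first enzyme of that pathway, was 142 ± 41.4 in Mdm2 ASO livers and 198 ± 29.1 in control ASO livers on CDAHFD (-0.50, adjusted p = 0.0880), and rose on HFHC to 575 ± 84.6 in Mdm2 ASO livers, against 143 ± 27.6 in control ASO livers (2.01, adjusted p = 1.7e-05).

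**Figure D4:**
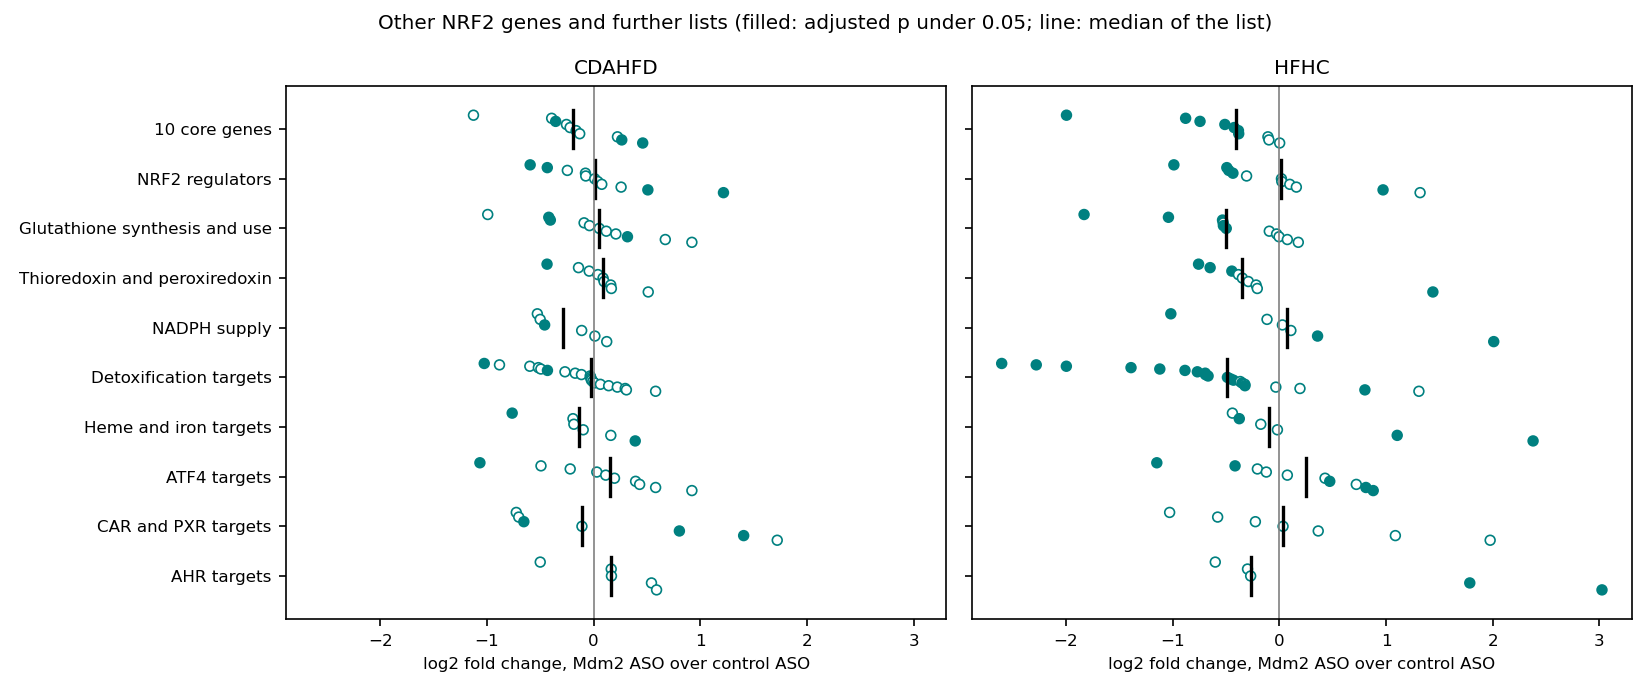
Log2 fold change of Mdm2 ASO over control ASO (x axis) for each gene of the core, of 6 lists of other NRF2 genes and of 3 further lists, on CDAHFD (left) and HFHC (right); filled points passed adjusted p under 0.05 and the black line is the median of the list. On HFHC most filled detoxification points lie below 0, while Hmox1 at 2.38 and G6pdx at 2.01 lie to the right.

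Cell markers moved beside these results on HFHC. Of all genes tested there, 16.8% rose and 13.8% fell, and 7180 of 17441 had an unadjusted p under 0.05. In bulk liver, fewer cells of a type and less RNA per cell cannot be told apart. Of 7 markers of monocytes and neutrophils, 6 rose, with summed levels of 7333 to 8808 in Mdm2 ASO livers and 633 to 996 in control ASO livers. Of 7 cholangiocyte markers, 5 fell, with sums of 1904 to 2737 in Mdm2 ASO livers and 3662 to 11427 in control ASO livers. Kupffer cell markers rose for 2 of 6, with sums of 10599 to 14237 and 3714 to 8031 in the same order. All 3 red cell markers rose, as did 3 of 5 endothelial, 4 of 6 stellate, 2 of 4 T and NK cell and 2 of 3 B cell markers, while of 5 markers of lipid-associated macrophages 1 rose and 3 fell. Of 7 hepatocyte markers 0 were called and 0 had an unadjusted p under 0.05. Their fold changes were negative for 5 and positive for 2 (median log2 fold change -0.22). The sums were 1288368 to 1994182 in Mdm2 ASO livers and 1121517 to 1361621 in control ASO livers. On CDAHFD, 1 Kupffer cell marker and 1 marker of lipid-associated macrophages fell and 0 of the other marker genes were called. Over all genes tested on CDAHFD, 6.12% rose and 6.86% fell, and 4734 of 16803 had an unadjusted p under 0.05. Of the 7 cholangiocyte markers there, 6 had a positive fold change and 5 an unadjusted p under 0.05 (median log2 fold change 1.05). Their sums were 6389.8 to 11376 in Mdm2 ASO livers and 3481 to 11022 in control ASO livers. For the difference between diets 6 of the 7 were called, all positive (median 2.13), beside 9.83% of all genes called positive. No marker was at 0 in every library. The part of these cell types in the changes of the core genes was not tested.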

How the data were processed

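Liver RNA-seq libraries of Mdm2 ASO and control ASO mice on 2 diets were analysed. Per the submitters' processing notes, the tools were STAR 2.7.10b and featureCounts of Subread 2.0.3 with GRCm39. The deposited values are a TMM-normalized signal per gene, read counts scaled by the authors, and in each library 100.0% of values after rounding were whole multiples of 1 constant within 0.001, which gave reads back. In 2 HFHC libraries that constant is close to 1. The tables hold 0 columns of samples outside this series.

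The filter kept genes at 1 or more in 5 libraries (CDAHFD) or 3 (HFHC). On log2(value + 0.5), limma-trend (limma 3.58.1, R 4.3.3) was fitted to each whole table, with Benjamini-Hochberg adjustment. The identical libraries counted once. Diets were compared by an interaction contrast over genes kept in both tables. In simulated data only a sample of genes with ample reads was changed on CDAHFD, with the same fixed spread for all genes. Of those changed 2-fold, the CDAHFD model found 89%, with 17568 genes tested. The model of the difference found 36%, with 16416 tested. These shares do not apply to low genes such as Slc7a11. HFHC was simulated with no gene changed, so recovery by the HFHC model was not tested. Alternatives used other pseudocounts, filters and scalings, edgeR 4.0.16 and DESeq2 1.42.0 on recovered reads, a replicate block and each library left out. Promoter windows came from RefSeq (GRCm38.p6), and exon lengths were matched by gene identifier.

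All 10 core genes are named, with Mdm2 and, per list and diet, up to 4 called genes by p, of which the text gives a part. Mafg and Cyp3a11 on HFHC, G6pdx on CDAHFD and the differences of Mafg, Hmox1, G6pdx, Pgd and Cyp3a11 fall outside this rule. The genes, lists and tests were chosen with earlier results of these data known.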

Additional observations from a re-analysis of the deposited data

Results flagged for a closer look

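Nfe2l2 in Mdm2 ASO replicate 6 on CDAHFD, at 3327, lay far below the other 4 Mdm2 ASO libraries, which ranged from 3597 to 3659.7. The gap was 0.810 of the group's whole range. The same library had the highest Mdm2 level of its group, 861. Of 30 groups examined this was the only one flagged, and a gap of this kind can arise by chance when 30 groups are examined.

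The response to the Mdm2 ASO differed between diets, CDAHFD minus HFHC on the log2 scale, for several genes. Among the core genes the difference was 0.84 for Ephx1, 0.73 for Gclc, 0.52 for Srxn1 and 0.36 for Nfe2l2. Outside the core it was 0.94 for Mafg, -0.82 for Pgd, -2.51 for G6pdx and -3.14 for Hmox1. Each passed an adjusted p of 0.05 (limma-trend). The diets were in tables normalized separately.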

How the results depend on the processing

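Of 610 values of the core genes under alternatives, 573 kept their direction and their side of the threshold, 20 lost a call, 8 gained one and 9 changed sign. The 4 core genes called for the difference between diets became 2 with scaling by library total and 1, Ephx1, with the replicate block, where adjusted p was 0.0588 for Gclc, 0.114 for Srxn1 and over 0.05 for Nfe2l2 (3 to 5 with 1 library left out). With 1 library left out, the core genes called numbered 2 to 4 on CDAHFD and 6 to 7 on HFHC, and the other NRF2 genes 10 to 15 and 25 to 37. On HFHC the sign changed, at values near 0 that were never called, for Nfe2l2 (0.00963) and Keap1 (0.000337) with scaling by library total. It also changed for Cbr3, to -0.26 with quantile normalization, -0.0167 with edgeR, -0.0248 with DESeq2 and -0.0558 with the identical libraries kept as 2, and it ranged from -0.15 to 0.14 with 1 library left out. The log2 difference of the Nfe2l2 to Keap1 ratio on HFHC, 0.01, ranged from -0.0418 to 0.0829 with 1 library left out. The cause was not tested.

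The share of called genes that rose on HFHC was 55.0%, against 40.0% with quantile normalization and 69.9% with scaling by library total. For the difference the positive share was 41.9%, against 55.4% and 26.7%, with the median of all genes at 0.10 and -0.11. Within a diet the groups share no replicate number, so no paired analysis was possible there because nothing pairs the libraries. Across diets, same-numbered libraries had weak correlations in 7 pairs (-0.0659 to 0.105, with 1 over 0.1). Of the 7, 4 correlated best with their own number, so these values do not settle whether the numbers link libraries. The replicate block used numbers only. Slc7a11 on HFHC is limited by its reads.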

Other observations

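Lists for neighbouring stress and drug responses were counted in the same way. Of 10 ATF4 targets, genes of the amino acid stress response that also controls cystine uptake, 0 rose and 1 fell on CDAHFD, and 3 rose and 2 fell on HFHC, beside 13.0% and 30.6% of all genes called. Ddit3, which encodes the stress factor CHOP, was 147 ± 80.5 in Mdm2 ASO livers on HFHC, against 300.2 ± 32.5 in control ASO livers (log2 fold change -1.15, adjusted p = 0.0128), a call lost without Mdm2 ASO replicate 9. Atf3 rose there (0.88, adjusted p = 0.00466). Of 7 targets of the drug receptors CAR and PXR, which also control Ephx1 in liver, 2 rose and 1 fell on CDAHFD, and 0 were called on HFHC, with 1 at an unadjusted p under 0.05. Por, the reductase that supplies cytochrome P450 enzymes with electrons, rose on CDAHFD to 14822 ± 2162 in Mdm2 ASO livers, against 8492 ± 1298 in control ASO livers (0.80, adjusted p = 0.00137). Cyp2a5 rose there to 22447 ± 8066 in Mdm2 ASO livers, against 8411 ± 3159.8 in control ASO livers (1.41, adjusted p = 0.00475). Cyp3a11 was the 1 that fell on CDAHFD (-0.65, adjusted p = 0.0273), called in 12 of 18 alternatives. On HFHC it just missed the threshold (-0.58, adjusted p = 0.0523) and was called in 6 of 16 alternatives. Its difference between diets was -0.08 (adjusted p = 0.877). The median log2 fold change of the 7 CAR and PXR targets on CDAHFD was -0.11. A link of these genes to Ephx1 was not tested. Of 5 AHR targets, 0 were called on CDAHFD, with 0 at an unadjusted p under 0.05. On HFHC 2 rose, Ahrr (3.02, adjusted p = 0.00251) and Tiparp (1.78, adjusted p = 0.00462). Over all genes tested, 4734 of 16803 on CDAHFD and 7180 of 17441 on HFHC had an unadjusted p under 0.05.

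Over deviations from group means in the 17 libraries, the genes most like Nqo1 among 12145 were Slc3a2 (Pearson r 0.79), Kcmf1 (0.73), Thy1 (0.73), Trbc2 (0.72) and Lck (0.71). Slc3a2 encodes the heavy chain that partners Slc7a11, which itself had an r of 0.38 with Nqo1. These correlations are descriptions without a test. Among the core genes, Cbr3 came closest, at rank 80, followed by Srxn1 at rank 224.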
